A study of Sus scrofa with 6 samples.

Results

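Matrix metalloproteinases (MMPs) are zinc-dependent enzymes that cut collagens, basement membrane and other proteins around cells, and the tissue inhibitors of metalloproteinases (TIMPs) bind and block them. In the kidney they act on the matrix between and beneath the tubules, and MMP7 is known as an epithelial protease that injured tubules can produce. They were followed here through 9 genes, the proteases MMP1, MMP2, MMP3, MMP7, MMP9 and MMP14 and the inhibitors TIMP1, TIMP2 and TIMP3. These are 9 of the 6765 genes that the array annotation names on a probe set of their own. Every probe set tied to 1 of these symbols alone was taken, which gave 15 of the 23999 non-control probe sets. MMP1, MMP2, MMP7, MMP9, MMP14 and TIMP1 had 1 probe set each, TIMP2 had 2, TIMP3 had 3 and MMP3 had 4. All 9 symbols and all 15 probe sets were measured and none was filtered out.

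Renal medulla came from crossbred pigs (White-Landrace in the labels, Large White-Landrace in the methods), 3 Sham and 3 CPB, sampled 24 hours after the intervention. Sham pigs had 2.5 hours of general anaesthesia, and CPB pigs had 2.5 hours of cardiopulmonary bypass (CPB, in which a pump and an oxygenator take over the work of heart and lungs) under the same anaesthesia. According to the methods the pigs were adult females, both groups also had neck dissection and systemic heparin, and blocks of outer medulla were cut from the removed kidney. Each Affymetrix porcine array held the RNA of 1 animal (n = 3 in each group), and this number limits the precision. Values are robust multichip average (RMA) intensities, which the authors had already corrected for background and equalised across arrays, with array medians between 94.6 and 96.9. A bulk array cannot tell fewer cells of a type from less RNA per cell.

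Cell type markers differed widely between arrays within both groups. The mean of 18 proximal tubule markers, with each gene centred on its log2 mean over the 6 arrays, was -2.14, 1.14 and -0.29 in Sham 1, 2 and 3 and 1.35, -1.58 and 1.52 in CPB 1, 2 and 3. The mean of 6 markers of urothelium, the lining of the renal pelvis, was 0.52, -0.99 and 1.43 in Sham 1, 2 and 3 and -0.87, 0.96 and -1.05 in CPB 1, 2 and 3. By these means Sham 1, Sham 3 and CPB 2 were thus high in urothelium markers and low in proximal tubule markers, while Sham 2, CPB 1 and CPB 3 were the reverse. UPK3A, a plaque protein of urothelium, had an intensity of 415.2, 61.6 and 527.6 in Sham 1, 2 and 3 and 55.4, 836.6 and 56.6 in CPB 1, 2 and 3. Not all 6 urothelium markers had this pattern. UPK1A was at 40.2, 36.9 and 109.4 in Sham 1, 2 and 3 and 36.8, 30.3 and 40.4 in CPB 1, 2 and 3, lowest in CPB 2. UPK2 ranged only from 58.4 to 86.0. For MMP7, MMP1, MMP9 and the 3 inhibitors the difference is also given below with these marker means as a covariate, and the part of the markers in any result was not tested.

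MMP7 (matrilysin), a small secreted protease that cleaves many matrix and cell surface proteins, separated the groups. Its intensity was 707.6, 1269.4 and 726.7 in Sham 1, 2 and 3 and 477.3, 430.3 and 283.1 in CPB 1, 2 and 3. Every CPB animal lay below every Sham animal, with CPB 3 the lowest and Sham 2 the highest. Sham averaged 901 ± 319 (SD, n = 3) and CPB averaged 397 ± 101 (SD, n = 3). On the log2 scale CPB minus Sham was -1.16, with a standard error of 0.31 and a 95% confidence interval of -1.91 to -0.41, which is 2.24-fold. The study picked MMP7 on these arrays, so this difference is a description and not a test. The study also measured MMP7 by real-time PCR and reported a change that followed the arrays, and those values were not analysed here. Its Pearson's r over the 6 arrays was 0.10 with the urothelium mean, -0.12 with the proximal tubule mean and 0.54, the highest of the 7 marker lists, with the mean of 14 myeloid and granulocyte markers. That myeloid mean ran from -0.025 to 0.15 in Sham and from -0.12 to -0.038 in CPB. It thus had the same split as MMP7, but by a narrow margin. Of its 14 markers 7 were higher and 7 lower by mean in CPB. FCGR3A, 1 of the 14, was itself selected by the study on these arrays, under the name FCGR3B, so the split is not independent of that selection. The part of the myeloid markers in the MMP7 difference was not tested. The log2 difference was -1.22 with the proximal tubule markers as a covariate and -1.25 with the urothelium markers. Without Sham 2 it was -0.89, without CPB 3 it was -0.94, and without each of the other arrays in turn it lay between -1.31 and -1.24.

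**Figure D1:**
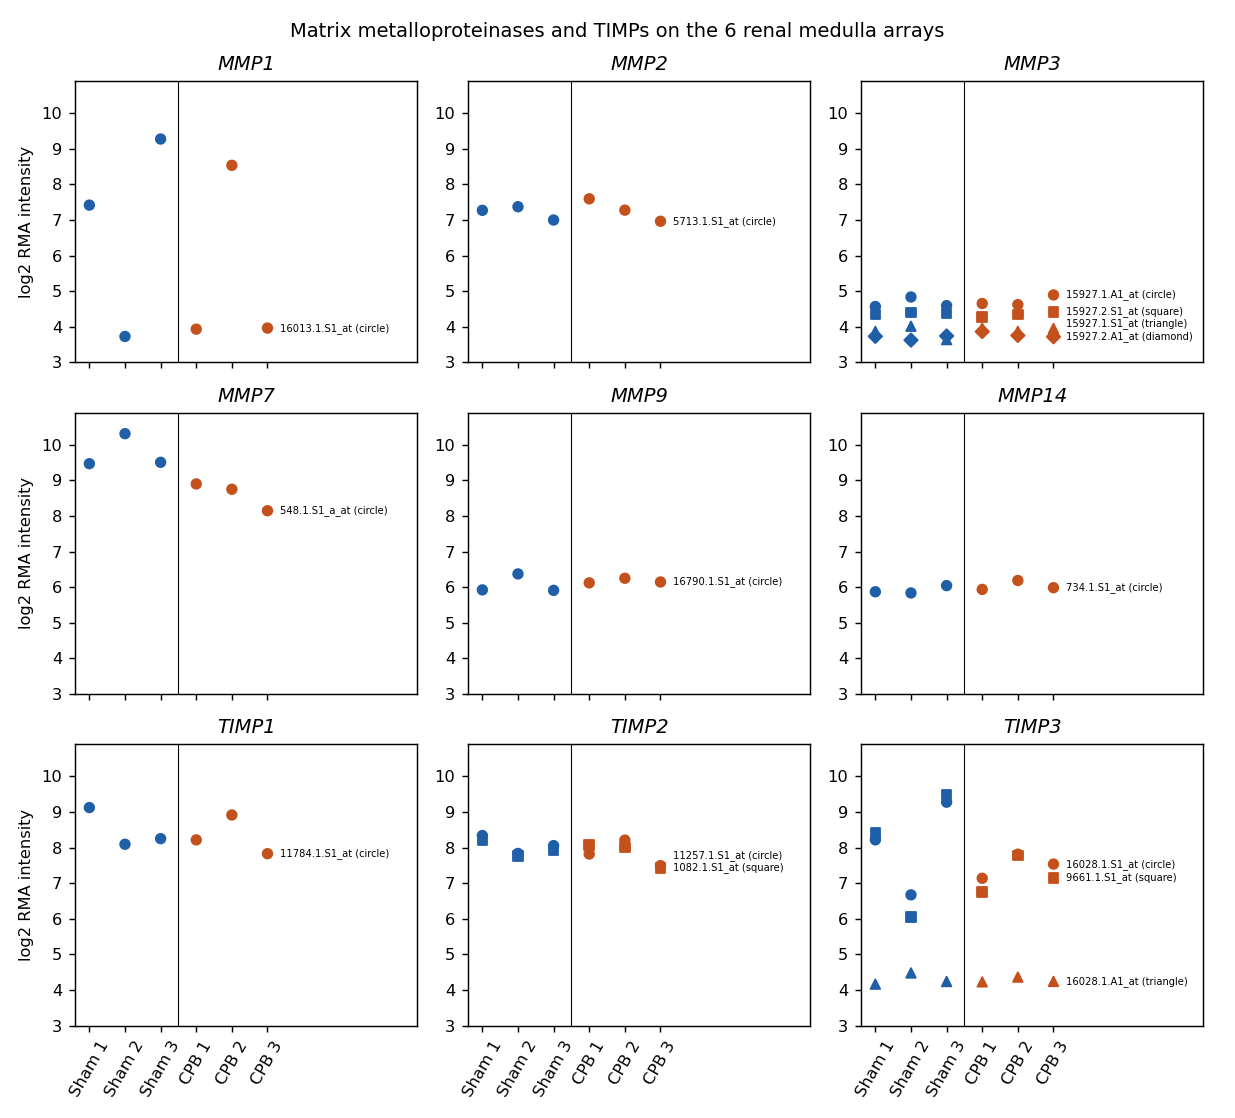
Log2 RMA intensity (vertical axis) of every probe set of the 9 genes on each array (horizontal axis), with 1 point per animal, Sham in blue and CPB in orange, and the symbol of each probe set given beside its name. MMP7 is lower in all 3 CPB animals, MMP1 is near 4 in Sham 2, CPB 1 and CPB 3 and above 7 in the others, and the 4 MMP3 probe sets stay near the bottom.

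The study called a gene changed at 1.6-fold or more with p under 0.05 before adjustment, and by limma MMP7 was the only member past this threshold. Of all probe sets 0.304% were past it, 0.217% lower and 0.0875% higher in CPB. MMP7 was also the only member without overlap between the groups, against 5.27% of all probe sets, 1.89% lower and 3.38% higher in CPB. Since the study chose MMP7 by that threshold, nothing is read from these counts. None of the 15 probe sets passed an adjusted p of 0.05 (smallest adjusted p = 0.995 from limma), and neither did any of the 23999 (0%). By mean, 6 of the 15 were higher and 9 lower in CPB, where 44.1% of all probe sets were lower. The median log2 difference was -0.028 over the 15 and 0.027 over all probe sets.

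MMP1 (interstitial collagenase), which cuts fibrillar collagen, varied most among the 15. Its intensity was 170.8, 13.2 and 618.0 in Sham 1, 2 and 3 and 15.3, 370.4 and 15.6 in CPB 1, 2 and 3. Thus 3 arrays, of both groups, were far above the other 3, whose values lay below the lower quartile of all probe sets on those arrays (37.1 to 38.5). The range spanned 5.54 on the log2 scale, a 46.7-fold difference, wider than that of 99.9% of all probe sets. The CPB minus Sham difference was -1.33 with a standard error of 1.82 (95% confidence interval -5.77 to 3.12, adjusted p = 0.995 from limma), so the spread within groups was larger than the difference.

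The arrays with high MMP1 were those with high urothelium markers. Over the 6 arrays Pearson's r between MMP1 and the mean of the 6 urothelium markers was 0.997, and with the proximal tubule mean it was -0.81. With the fibroblast and pericyte, endothelium and myeloid means it was 0.85, 0.81 and 0.68. With the collecting duct and thick ascending limb means it was 0.46 and -0.52. This is a description of 6 points that fall into 2 clusters of 3 arrays and share their normalisation. With the urothelium mean as a covariate the group difference turned to 0.17, and with the proximal tubule mean it was -0.22. It was -0.095 without Sham 3, -0.56 without CPB 1, -0.57 without CPB 3, -2.87 without Sham 2 and -2.86 without CPB 2. Of the 6 urothelium markers KRT19 was higher by mean in CPB and the other 5 were lower, UPK1B and UPK3A among them, and none met the study's threshold.

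MMP3 (stromelysin 1), which degrades proteoglycans and basement membrane and activates other MMPs, gave weak signals on all 4 of its probe sets. By mean intensity all 4 lay below the lower quartile of probe sets, with values between 12.3 and 29.7 on every array. Their log2 differences were 0.057 (standard error 0.14), -0.028 (0.10), 0.087 (0.13) and 0.081 (0.11), and the groups overlapped on each. The probe sets did not follow each other, since Pearson's r over the 6 arrays ranged from -0.84 to 0.64. Whether MMP3 RNA was present at all cannot be read from these values, because the deposited table holds no detection calls.

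In the pig gene table of Sscrofa11.1, MMP7, MMP1 and MMP3 are neighbours in a run of metalloproteinase genes that also holds MMP20, MMP27, MMP8, MMP12 and MMP13. MMP7 and MMP1 nevertheless had different patterns, MMP7 parting Sham from CPB and MMP1 parting Sham 1, Sham 3 and CPB 2 from the rest. MMP13 and MMP20, named after their values were seen, had intensities of 11.6 to 19.2 and 8.24 to 10.6 over all arrays, also below the lower quartile of mean intensity.

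MMP2 (gelatinase A), which degrades denatured collagen and type IV collagen and is made largely by stromal cells, differed little. Its intensity was 154.2, 165.4 and 127.8 in Sham 1, 2 and 3 and 193.1, 154.8 and 124.7 in CPB 1, 2 and 3. The CPB values reached both above and below the Sham range. The log2 difference was 0.064 (standard error 0.20, 95% confidence interval -0.42 to 0.55).

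MMP9 (gelatinase B), an enzyme stored in neutrophil granules, had an intensity of 60.7, 82.8 and 60.1 in Sham 1, 2 and 3 and 69.6, 76.1 and 70.8 in CPB 1, 2 and 3. The 3 CPB animals lay close together, between the low Sham 1 and Sham 3 and the high Sham 2. The log2 difference was 0.10 (standard error 0.16, 95% confidence interval -0.29 to 0.49), and it ranged from 0.025 without Sham 3 to 0.26 without Sham 2. With the proximal tubule and urothelium means as covariates it was 0.068 and 0.050. By mean 7 of the 14 myeloid and granulocyte markers were higher and 7 lower in CPB, and 1, the Fc receptor gene FCGR3A, met the study's threshold (-0.93, lower). The neutrophil genes S100A8, S100A9 and S100A12 were at 16.5 to 26.6 on every array, below the lower quartile of mean intensity.

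MMP14 (membrane type 1 MMP), which sits in the cell membrane and activates pro-MMP2, had the narrowest range of the proteases outside MMP3. Its intensity was 58.5, 57.2 and 66.0 in Sham 1, 2 and 3 and 61.3, 72.9 and 63.3 in CPB 1, 2 and 3. The highest value was in CPB 2, and CPB 1 and CPB 3 lay inside the Sham range. The log2 difference was 0.12 (standard error 0.13, 95% confidence interval -0.19 to 0.43).

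For 9 of the 15 probe sets the 95% confidence interval lay wholly inside a 1.6-fold difference in either direction (0.68 on the log2 scale). These were MMP2, MMP9, MMP14, all 4 probe sets of MMP3, 1 of TIMP2 and the dim probe set of TIMP3. A difference in intensity as large as the study's threshold was thus outside the interval for them. For MMP1, TIMP1, the other TIMP2 and the 2 bright TIMP3 probe sets the interval reached beyond it. All 4 MMP3 probe sets and the dim TIMP3 probe set lay below the lower quartile of mean intensity. Their narrow intervals describe weak signals and cannot bound a difference in MMP3 or TIMP3 RNA. No share over all probe sets is set beside this count, so nothing is read from it.

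**Figure D2:**
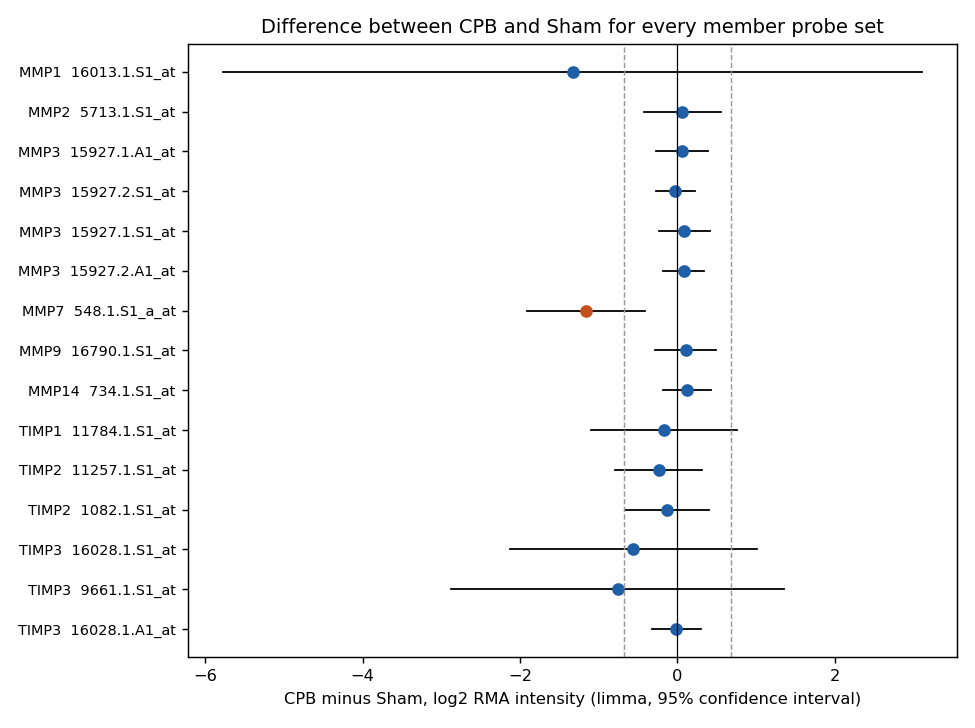
CPB minus Sham difference in log2 RMA intensity (horizontal axis) for each of the 15 probe sets (vertical axis), with the 95% confidence interval of limma as a line and a 1.6-fold difference in either direction as dashed lines. The interval of MMP7 (orange) runs from -1.91 to -0.41, and every other interval contains 0, the widest being that of MMP1.

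TIMP1, a secreted inhibitor that binds pro-MMP9, had an intensity of 557.6, 272.9 and 304.4 in Sham 1, 2 and 3 and 297.2, 482.4 and 227.2 in CPB 1, 2 and 3. Sham 1 and CPB 2 were high, and the other 4 animals lay together. The log2 difference was -0.17 (standard error 0.38, 95% confidence interval -1.10 to 0.76). Its sign turned in several settings. The difference was 0.15 without Sham 1, 0.076 without CPB 3, 0.098 with the proximal tubule markers as a covariate and 0.014 with the urothelium markers. Sham 1 and CPB 2 had the lowest proximal tubule means, and Pearson's r of TIMP1 with that mean was -0.95 over the 6 arrays. With the endothelium mean r was nearly as large in size, 0.93. It was 0.75 with the fibroblast and pericyte mean and 0.62 with the urothelium mean.

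TIMP2, which both inhibits MMP2 and helps MMP14 to activate it, was read by 2 probe sets. On the brighter the intensity was 323.5, 228.4 and 265.9 in Sham 1, 2 and 3 and 225.6, 295.9 and 180.2 in CPB 1, 2 and 3. On the other it was 295.4, 217.2 and 242.7 in Sham 1, 2 and 3 and 268.9, 256.1 and 172.2 in CPB 1, 2 and 3. CPB 3 was the lowest animal and Sham 1 the highest on both, and r between them was 0.85 over the 6 arrays. The log2 differences were -0.24 (standard error 0.23) and -0.13 (standard error 0.22). The brighter ranged from -0.42 without CPB 2 to -0.063 without CPB 3, with -0.11 without Sham 1, and the other from -0.25 without CPB 1 to 0.072 without CPB 3. With the proximal tubule and urothelium means as covariates the brighter was at -0.088 and -0.11, and the other at -0.034 and -0.055. The brighter probe set had r = 0.93 with TIMP1, -0.94 with the proximal tubule mean, 0.78 with the urothelium mean and 0.97 with the mean of 13 endothelium markers.

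TIMP3, an inhibitor that binds to the matrix and also blocks ADAM proteases, was the most variable inhibitor. On its brightest probe set the intensity was 297.4, 101.9 and 619.1 in Sham 1, 2 and 3 and 140.8, 225.0 and 185.5 in CPB 1, 2 and 3. On a second bright probe set it was 341.4, 66.2 and 720.2 in Sham 1, 2 and 3 and 108.3, 218.8 and 141.9 in CPB 1, 2 and 3. On both, the Sham animals included the highest and the lowest value, and the CPB animals lay between them. These 2 probe sets had r = 0.993 over the 6 arrays, and their ranges of 2.60 and 3.44 on the log2 scale were wider than those of 97.4% and 99.0% of all probe sets. The log2 differences were -0.56 (standard error 0.64) and -0.76 (standard error 0.87), both with an adjusted p = 0.995 from limma. The dim TIMP3 probe set stayed between 17.9 and 22.3 and did not follow them, with r = -0.55 and -0.58.

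As for MMP1, the TIMP3 difference rested on single animals and moved with the urothelium markers. Without Sham 3 it was 0.051 and -0.005 on the 2 bright probe sets. Without Sham 2 it was -1.25 and -1.73, and both then met the study's threshold, as did 2.92% of all probe sets. With array weights, or without both Sham 2 and CPB 2 (a setting chosen after seeing the data), both and MMP1 met it beside MMP7, as did 8.82% and 12.8% of all probe sets. With the methods' t-test on linear values no member met it, MMP7 included, against 0.108% of all probe sets. With the urothelium mean as a covariate the TIMP3 difference was -0.12 and -0.14, and with the proximal tubule mean it was -0.32 and -0.37. Pearson's r of the 2 bright probe sets was 0.86 and 0.89 with the urothelium mean and -0.54 and -0.63 with the proximal tubule mean. The fibroblast and pericyte mean, over 14 markers, also moved with TIMP3 (r = 0.78 and 0.84), with values of 0.41, -0.37 and 0.36 in Sham 1, 2 and 3 and -0.063, 0.11 and -0.44 in CPB 1, 2 and 3. Which of these cell types carried TIMP3 was not tested.

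**Figure D3:**
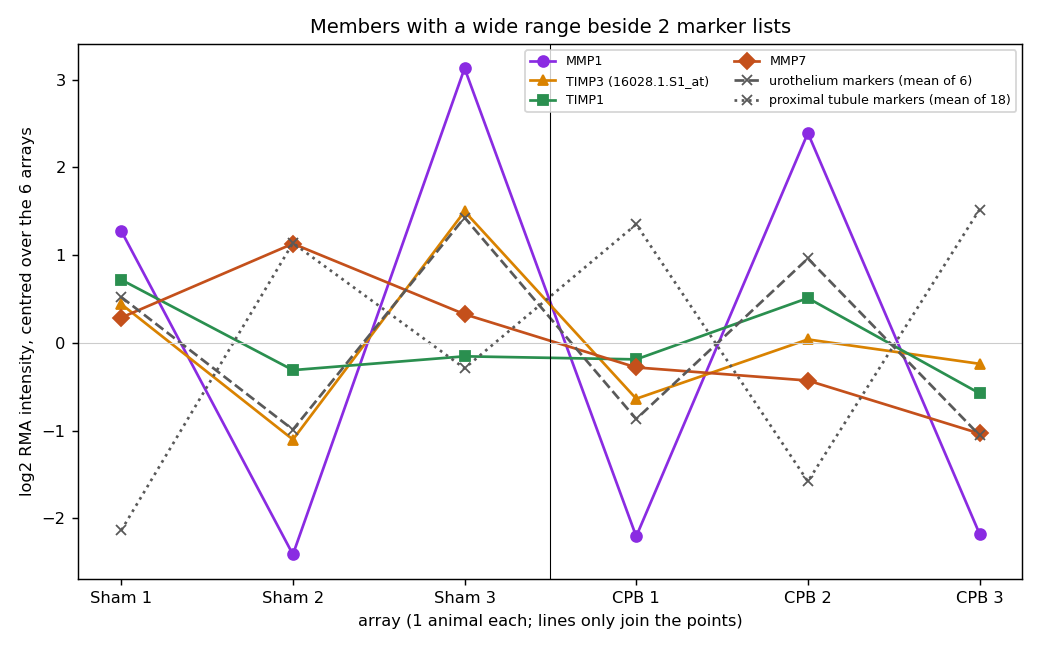
Log2 RMA intensity of MMP1, the brightest TIMP3 probe set, TIMP1 and MMP7, each centred on its mean over the 6 arrays (vertical axis), on each array (horizontal axis), with the centred means of 6 urothelium and 18 proximal tubule markers in grey. MMP1 and the urothelium mean are both above 0 in Sham 1, Sham 3 and CPB 2, while MMP7 lies above 0 in the 3 Sham and below 0 in the 3 CPB animals.

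With each array left out and with either covariate, the difference of MMP1 ran from -2.87 to 0.17 and that of TIMP3 on its brightest probe set from -1.25 to 0.051. For MMP7, whose groups do not overlap, leaving out an array could not turn the sign, so its values are a description only. Within the Sham group MMP7 itself spanned 707.6 to 1269.4, and over all arrays its range of 2.16 on the log2 scale was wider than that of 95.5% of all probe sets.

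**Figure D4:**
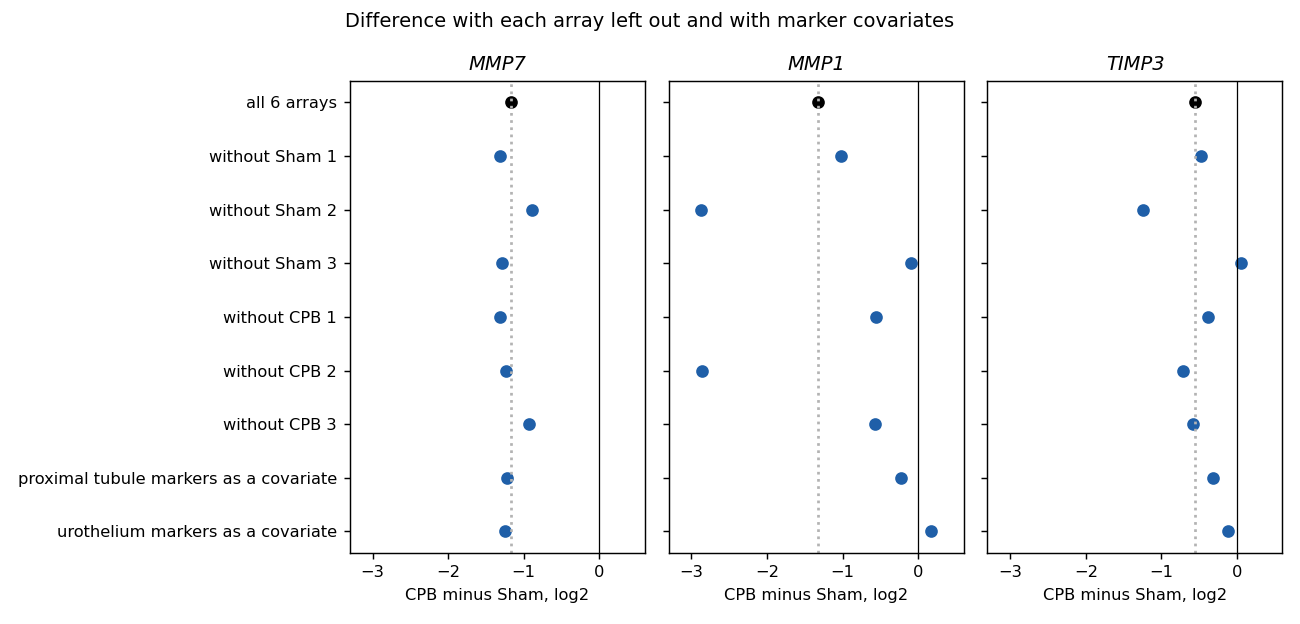
CPB minus Sham difference in log2 RMA intensity (horizontal axis) for MMP7, MMP1 and the brightest TIMP3 probe set with all 6 arrays, without each array in turn, and with a marker mean as a covariate (vertical axis). Every MMP7 point lies between -1.31 and -0.89, and the MMP1 points spread from -2.87 to 0.17.

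The balance between a protease and its inhibitor was compared within arrays as the difference of their log2 intensities, with TIMP2 on its brighter probe set, whose absolute size has no meaning because probe sets differ in brightness. MMP9 minus TIMP1 was -3.20, -1.72 and -2.34 in Sham 1, 2 and 3 and -2.09, -2.66 and -1.68 in CPB 1, 2 and 3, with wide overlap. Its mean was 0.27 higher in CPB (exact permutation p = 0.6, two-sided), and it was -0.12 without Sham 1 and 0.62 without Sham 2. MMP2 minus TIMP2 was -1.07, -0.47 and -1.06 in Sham and -0.22, -0.93 and -0.53 in CPB, again with overlap and with a mean 0.30 higher in CPB (exact permutation p = 0.3, two-sided). It was 0.13 without CPB 1, 0.50 without Sham 2, 0.15 and 0.13 with the proximal tubule and urothelium means as covariates, and 0.20 with the other TIMP2 probe set (exact permutation p = 0.4). MMP14 minus TIMP2 was -2.47, -2.0 and -2.01 in Sham and -1.88, -2.02 and -1.51 in CPB. There 2 of the 3 CPB animals lay above all Sham animals, and the mean was 0.36 higher (exact permutation p = 0.3, two-sided). It was 0.20 without Sham 1, 0.21 without CPB 3 and 0.25 with the other TIMP2 probe set (exact permutation p = 0.4), and with a second quantile normalization it was 0.35 (exact permutation p = 0.1). Over these 3 comparisons the Benjamini-Hochberg adjusted p was 0.6, 0.45 and 0.45 by the exact permutation test, and 3 animals against 3 cannot give a p below 0.1.

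**Figure D5:**
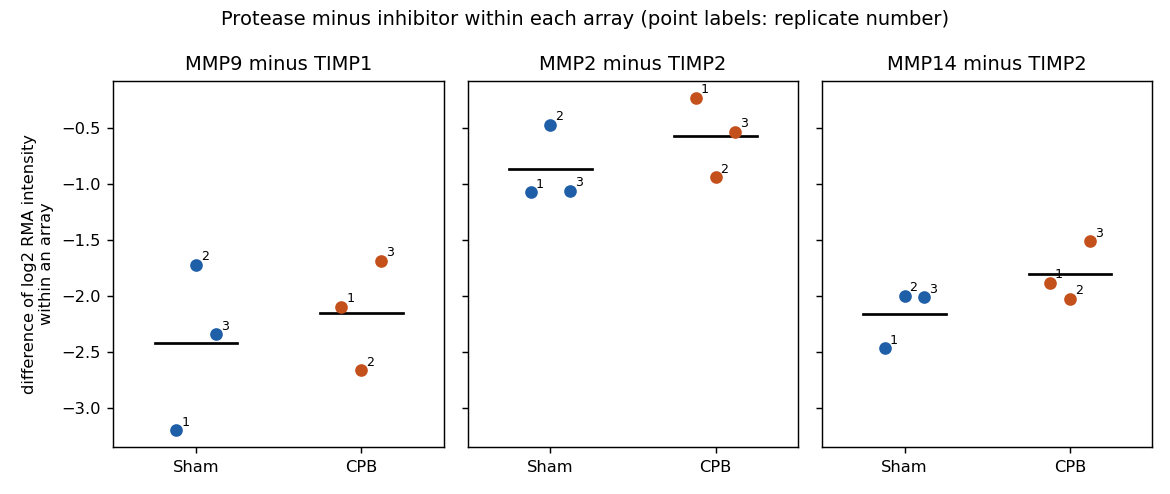
Difference of log2 RMA intensity between a protease and an inhibitor within each array (vertical axis) in Sham and CPB animals (horizontal axis), with 1 point per animal numbered by replicate and the group mean as a bar. The groups overlap in all 3 panels, and the means of CPB lie 0.27, 0.30 and 0.36 above those of Sham.

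Related proteases were taken from a list of other MMP, ADAM and ADAMTS genes, of which 11 of 41 were measured. None met the study's threshold or an unadjusted p under 0.05 from limma. By mean 2 were higher and 9 lower in CPB, with a median of -0.12 on the log2 scale. BMP1, which trims procollagen, had an intensity of 134.0, 152.2 and 105.8 in Sham 1, 2 and 3 and 163.8, 153.8 and 172.2 in CPB 1, 2 and 3, so the groups did not overlap, by a narrow margin. Its log2 difference was 0.34 (standard error 0.16). The membrane-bound sheddases ADAM9, ADAM10 and ADAM28 differed by -0.74 (standard error 0.40), -0.98 (0.60) and -1.20 (0.81), with the highest value of each in Sham 3. ADAM28 was at 319.8 in Sham 3 and between 32.7 and 48.2 on the other 5 arrays. MEP1B, a meprin of the proximal tubule brush border, was named after its values were seen as the highest difference of the list, 1.26 (standard error 1.62). Its intensity was 16.8, 357.1 and 108.3 in Sham 1, 2 and 3 and 389.4, 26.7 and 852.2 in CPB 1, 2 and 3, in step with the proximal tubule markers. ADAMTS20 also had no overlap between groups, but its values of 10.6 to 11.5 lay below the lower quartile of mean intensity, and it was named after its values were seen. Groups did not overlap in 5.27% of all probe sets, so nothing is read from BMP1 and ADAMTS20.

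Of 29 listed activators, inhibitors and binding partners 17 were measured. None met the study's threshold, and by mean 8 were higher and 9 lower in CPB, with a median of -0.12 on the log2 scale. BSG (basigin), a membrane protein also known as the extracellular matrix metalloproteinase inducer, was the only 1 of the 17 past an unadjusted threshold of 0.05 by limma, against 1.40% of all probe sets. Its intensity was 421.1, 638.7 and 385.5 in Sham 1, 2 and 3 and 639.5, 746.7 and 676.2 in CPB 1, 2 and 3. The groups did not overlap, although CPB 1 lay just above Sham 2, and the log2 difference was 0.55 (standard error 0.21, adjusted p = 0.995 from limma). TFPI2, a Kunitz inhibitor of plasmin and of several MMPs, was at 3135, 1421 and 2464 in Sham 1, 2 and 3 and 1502, 1380 and 748.3 in CPB 1, 2 and 3, with Sham 2 inside the CPB range. Its log2 difference was -0.94 (standard error 0.39). SERPINE2, an inhibitor of urokinase and thrombin, differed by -0.58 (standard error 0.32), with Sham 1 at 135.1 and the other 5 arrays at 45.9 to 67.2. Its groups did not overlap, by a narrow margin (Sham 2 at 64.3 and CPB 2 at 63.3). Of all probe sets 5.27% had no overlap, and nothing is read from its lack in BSG and SERPINE2. ITGAV, the alpha V integrin subunit, differed by -0.39 (standard error 0.22) with overlap. TIMP4, named after its values were seen, was at 20.5 to 31.1 over its probe sets and arrays, below the lower quartile of mean intensity.

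Of 40 listed substrates in the matrix and at the cell surface 27 were measured. On the probe set read for each gene, none met the study's threshold or an unadjusted p under 0.05 from limma. By mean 13 were higher and 14 lower in CPB, with a median of -0.032. TNC (tenascin C), a matrix protein of remodelling tissue, had the largest difference of the list, -1.56 (standard error 0.92). Its intensity was 427.6, 45.3 and 217.0 in Sham 1, 2 and 3 and 36.8, 122.6 and 36.2 in CPB 1, 2 and 3, highest in the 3 arrays with high urothelium markers. The collagen-binding protein SPARC differed by -0.32 (standard error 0.23), and the collagen chains COL1A2 and COL6A3 by -0.36 (0.26) and -0.74 (0.55). All 4 overlapped between the groups.

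Of 38 listed inducing cytokines and transcription factors 28 were measured, none of which met the study's threshold or an unadjusted p under 0.05 from limma. By mean 11 were higher and 17 lower in CPB, with a median of -0.088. JUN and FOS, which pair as AP-1, a known activator of several MMP promoters, differed by -0.43 (standard error 0.24) and -1.05 (standard error 0.77). FOS was at 847.4, 314.0 and 717.8 in Sham 1, 2 and 3 and 98.2, 704.9 and 310.1 in CPB 1, 2 and 3, high in the arrays with high urothelium markers. FOSL1 differed by 0.16 (standard error 0.13) and LEF1, a partner of beta-catenin, by -0.45 (standard error 0.40). For none of these lists is a difference from the other probe sets claimed.

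Genes whose pattern over the 6 arrays was most like a member were sought among all named probe sets, for the members spanning more than 1 on the log2 scale. For MMP7 they were PPID (r = 0.971), CD180 (0.951), CLU (0.940), FAM198B (0.939) and CYP19A1 (0.936), of which CLU, the chaperone clusterin, spanned 1.41 on the log2 scale and the others at most 0.49. The study selected this CLU probe set, like MMP7, as lower in CPB on these arrays. Its likeness to MMP7 is therefore not independent of that selection. Only 9 of 10068 named probe sets had r of at least 0.9 with MMP7, against 541 with MMP1, 437 with TIMP1 and 272 of 10066 with the brightest TIMP3 probe set. For MMP1 the nearest were NDFIP2 (r = 0.998), SELE (0.997), VSNL1 (0.996), RAB3D (0.996) and RCAN3 (0.995). SELE, the endothelial adhesion molecule E-selectin, spanned 3.20. For TIMP1 they were PPP1R1A, CDC42EP3, ISLR, NPR2 and USP24 (r = 0.993 to 0.998), and for TIMP3 they were NCK2, DUSP7, RAB11A, IFRD1 and CRK (r = 0.987 to 0.997). With 6 arrays that share 1 normalisation, such values describe these arrays only.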

How the data were processed

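Total RNA from the renal medulla of 6 pigs, 3 Sham and 3 CPB, was hybridised to Affymetrix GeneChip Porcine Genome Arrays. The authors took quality parameters from GCOS and normalised in ArrayStar by RMA (background correction, then quantile normalization, then median polish). RMA is also the method in the submitters' processing notes. The deposited table holds intensity values on a linear scale, as read from their size and range, for 24123 probe sets. Tests were run after a log2 transform, except where linear values are named. Raw scans were not analysed here, so signal over background is not known.

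The array annotation gives 1 symbol for 10099 probe sets and several for 198, which were left unnamed, and does not list 13826. After removal of 124 control probe sets, 23999 were fitted in R 4.3.3 using lmFit and eBayes of limma 3.58.1, group being the sole term, and p-values were adjusted over all 23999 (Benjamini-Hochberg). Protease minus inhibitor differences were compared by exact permutation tests in SciPy 1.17.1. In gene and marker lists each gene was read on its probe set with the highest mean. The script was tested on simulated data with known changes.

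The named genes are every member, up to 4 genes with the smallest p in each list, the genes most alike in pattern, up to 3 defining markers of each marker list, and those said to be named later. COL3A1, FCGR3A, UPK1A and UPK2 are outside this rule and were named after their values were seen. The members and lists were chosen with earlier results of these data known. Other settings tried were the methods' t-test (on either scale), limma with a trend and robust prior or with array weights, a second quantile normalization, median centring, a filter on dim probe sets, control probe sets kept, the replicate number as a block, marker covariates, each array left out, other fold minimums and every probe set of a listed gene. A fit without Sham 2 and CPB 2, whose markers stand apart in their groups, was added after seeing the data. No genome build is named for the arrays, so no coordinates are given. Nothing in the labels ties the animals to litters or batches.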

Additional observations from a re-analysis of the deposited data

How the results depend on the processing

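The difference of MMP7 lay between -1.31 and -0.79, a direction that the study's choice of the gene and the lack of overlap largely fix. With the methods' t-test on linear values 0 members met the study's threshold, and with that t-test on log2 values MMP7 alone met it (background 0.125%). Members at the threshold numbered 4 with array weights (background 8.82%) and 4 without Sham 2 and CPB 2 (12.8%), the added ones being MMP1 at -3.64 and -4.40 and the 2 bright TIMP3 probe sets at -1.29 and -1.76 and at -1.41 and -2.0. With each array left out they numbered 1 to 3 (3 without Sham 2, against 2.92% of all probe sets), and 0 members passed an adjusted p in every such fit. Members without overlap numbered 1 to 6 with each array left out (6 without Sham 2, 3 without CPB 3, 2 without Sham 3 and 2 without CPB 2, against 32.4%, 10.2%, 9.03% and 22.2% of all probe sets), 2 with median centring (5.23%) and 9 without Sham 2 and CPB 2 (60.4%). Under urothelium markers as a covariate the direction turned for MMP1 (0.17), TIMP1 (0.014) and the brightest MMP3 probe set (-0.0064). Under proximal tubule markers it turned for TIMP1 (0.098) and for MMP9 minus TIMP1 (-0.030). The dim TIMP3 probe set turned to 0.034 without Sham 2 and CPB 2. The causes were not tested.

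With each array left out, the range was -0.094 to 0.22 for MMP2, -0.029 to 0.14, -0.063 to 0.0048 and -0.014 to 0.17 for 3 MMP3 probe sets, -0.47 to 0.15 for TIMP1, -0.25 to 0.072 for the dimmer TIMP2, -1.25 to 0.051 for the brightest TIMP3 and -0.081 to 0.076 for the dim TIMP3. It was 0.025 to 0.26 for MMP9, 0.044 to 0.18 for MMP14, -0.42 to -0.063 for the brighter TIMP2, -0.12 to 0.62 for MMP9 minus TIMP1, 0.13 to 0.50 for MMP2 minus TIMP2 and 0.20 to 0.46 for MMP14 minus TIMP2.

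On the probe sets read here, each of the 4 wider lists had 0 genes at the threshold. With array weights (8.82% of all probe sets) these were 4 other proteases, 5 activators and inhibitors, 4 substrates and 5 inducing factors, and without Sham 2 and CPB 2 (12.8%) they were 2, 7, 4 and 9. With each array left out they numbered 0 to 1, 0 to 2, 0 to 1 and 0 to 1. The share of all probe sets in these fits ran from 0.217% without CPB 3 to 2.92% without Sham 2, with 2.89% without CPB 2. Single calls appeared for activators with median centring (1, against 0.325%), substrates with proximal tubule markers (1, against 0.45%) and inducing factors with every probe set of a gene (1, against 0.304%). The replicate numbers were not taken as pairs, and deviations of same-numbered animals correlated at -0.39, -0.68 and -0.016. With so few animals these values cannot show whether same-numbered animals shared a day or a batch. With the replicate block 1 of the other proteases was called (0.317% of all probe sets), and MMP7 stayed at -1.16.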
